A study of Mus musculus with 13 samples.

Results

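The genes described here encode ligands and receptors of the transforming growth factor beta (TGF-beta), activin and myostatin pathways, with 1 matrix protein of the latent TGF-beta binding family. They were 10 of the 14911 genes measured and were chosen by name: the ligand genes Tgfb1, Tgfb2, Tgfb3, Inhba, Inhbb and Mstn, the receptor genes Tgfbr1, Tgfbr2 and Acvr2a, and Ltbp2. Messenger RNA was sequenced from whole hamstring muscle of female C57BL/6 mice on day 4 after cardiotoxin, a cobra venom peptide that kills muscle fibres, had been injected into that muscle at 0.32 mg/kg. There were 9 mice given dexamethasone, a synthetic glucocorticoid, at 10 mg/kg into the peritoneum each day, and 4 mice given saline by the same schedule, with 1 library per mouse. Both groups carried the cardiotoxin injury, and no uninjured muscle was compared. According to the submitters, micro computed tomography found bone in the injured muscle of every dexamethasone mouse, and a further saline mouse was left out because it had bone. Effects of the drug and of bone formation therefore cannot be told apart. The labels used here give neither the age of the mice nor anything that ties mice of the same number.

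TGF-beta ligands are secreted as latent complexes that are stored in the matrix on latent TGF-beta binding proteins and are freed by integrins, thrombospondin or proteases. A free ligand brings together type II and type I receptors, and the type I receptor phosphorylates Smad proteins that enter the nucleus. Activins and myostatin use the activin type II receptors and are trapped by follistatin. In muscle, myostatin restrains growth, and TGF-beta ligands drive matrix production after injury and hold back the differentiation of myoblasts.

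The bases upstream of 3 of the genes are shown so that the gene of largest change (Ltbp2), the receptor gene of smallest adjusted p (Tgfbr2) and a ligand gene that did not pass the test (Mstn) can be read side by side. The sequences are from RefSeq on GRCm38.p6, the assembly behind mm10, read 5′ to 3′ on the strand of the gene, and capitals mark the Smad-binding box CAGAC or its reverse complement GTCTG. They cover chr12:84876559-84876741 on the minus strand for Ltbp2, chr9:116175364-116175613 on the minus strand for Tgfbr2 and chr1:53061390-53061639 on the plus strand for Mstn.
Ltbp2: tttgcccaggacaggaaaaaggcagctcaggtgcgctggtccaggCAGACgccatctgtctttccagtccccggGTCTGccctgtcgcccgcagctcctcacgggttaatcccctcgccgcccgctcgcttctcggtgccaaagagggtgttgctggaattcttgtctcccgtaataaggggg
Tgfbr2: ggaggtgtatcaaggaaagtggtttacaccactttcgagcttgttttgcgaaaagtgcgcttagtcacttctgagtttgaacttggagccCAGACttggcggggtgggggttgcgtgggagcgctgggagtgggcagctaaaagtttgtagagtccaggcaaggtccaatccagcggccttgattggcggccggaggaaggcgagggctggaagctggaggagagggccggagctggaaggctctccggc
Mstn: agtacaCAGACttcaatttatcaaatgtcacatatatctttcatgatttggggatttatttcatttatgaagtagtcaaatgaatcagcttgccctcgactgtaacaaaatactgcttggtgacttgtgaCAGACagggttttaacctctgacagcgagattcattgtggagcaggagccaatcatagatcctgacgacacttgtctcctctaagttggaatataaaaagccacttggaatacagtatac

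Among the 10 genes, 9 had at least 1 entry in the RefSeq promoter table, with 10 windows between them because Tgfbr1 had 2. Tgfb3 had none. In the 250 bases before the start, on either strand, the box CAGAC was found in 6 of the 10 windows, against 42.2% of 32851 windows of that length over all genes. Ltbp2 had it at -205 and -176 from the RefSeq start used for its window, Mstn at -244 and -120, Tgfb2 at -221 and -204, and Tgfbr2 at -160. The window of Acvr2a and 1 of the Tgfbr1 windows also held it, whereas the windows of Tgfb1, Inhba and Inhbb did not. The AP-1 motif TGANTCA was found in 1 of the 10 windows (Mstn), against 6.75% of all. A TATA box (TATAAA) was found in 3, those of Mstn at -29, Tgfb2 at -31 and Inhba at -91, against 12.4% of all. The Tgfb2 and Inhba windows, and the Tgfbr1 window that held CAGAC, lie inside the gene's RefSeq bounds, at a start that is not the outermost. The Ltbp2 window lies partly inside them, so its printed bases end before the start from which -205 and -176 are counted. The glucocorticoid response element, searched as GNACA and TGTNC with 3 bases between them, was found in 0 of the 10 windows, against 0.387% of all. The letters were thus held by genes that passed the test below and by genes that did not.

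Depth and cell makeup bear on every value. Dexamethasone libraries held 28021111 to 34942266 reads over the 14911 genes, and saline libraries 25531487 to 32537345. Levels are given as log2 of reads scaled to a common library size (log2 CPM), and a fold change is the difference of group means, dexamethasone minus saline, tested in limma over all genes with Benjamini-Hochberg adjustment and a threshold of 0.05. In that test 48.1% of all genes passed, 25.2% higher and 22.9% lower with dexamethasone. In 25.8% of all genes the libraries of the groups did not overlap, 12.9% with dexamethasone higher and 12.9% with it lower. Defining markers of mature fibres were abundant in every library, and their 18 genes summed to 112152 to 164865 CPM with dexamethasone, against 160431 to 242809 CPM with saline, with 0 higher and 7 lower. With the mean of these fibre markers as a covariate, 14.8% of all genes passed higher and 13.7% lower. T and B lymphocyte markers fell in 8 of 8 genes and summed to 4.68 to 14.0 CPM, against 35.4 to 51.6 CPM with saline. No marker of the cell types listed was at 0 reads in any library.

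Of the 10 genes, 6 rose with dexamethasone (25.2% of all genes) and 0 fell (22.9%): Ltbp2, Inhba, Inhbb and all 3 receptor genes rose. The TGF-beta ligand genes and Mstn did not pass the test. For 4 genes, Ltbp2 and the receptor genes, every dexamethasone library lay above every saline library, and for none did every one lie below (12.9% of all genes each way). The median log2 fold change of the 10 was 0.38, beside 0.0071 over all genes, whose median absolute log2 fold change was 0.23. In whole muscle, a change in the number of cells that express a gene and a change in RNA per cell cannot be told apart.

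**Figure D1:**
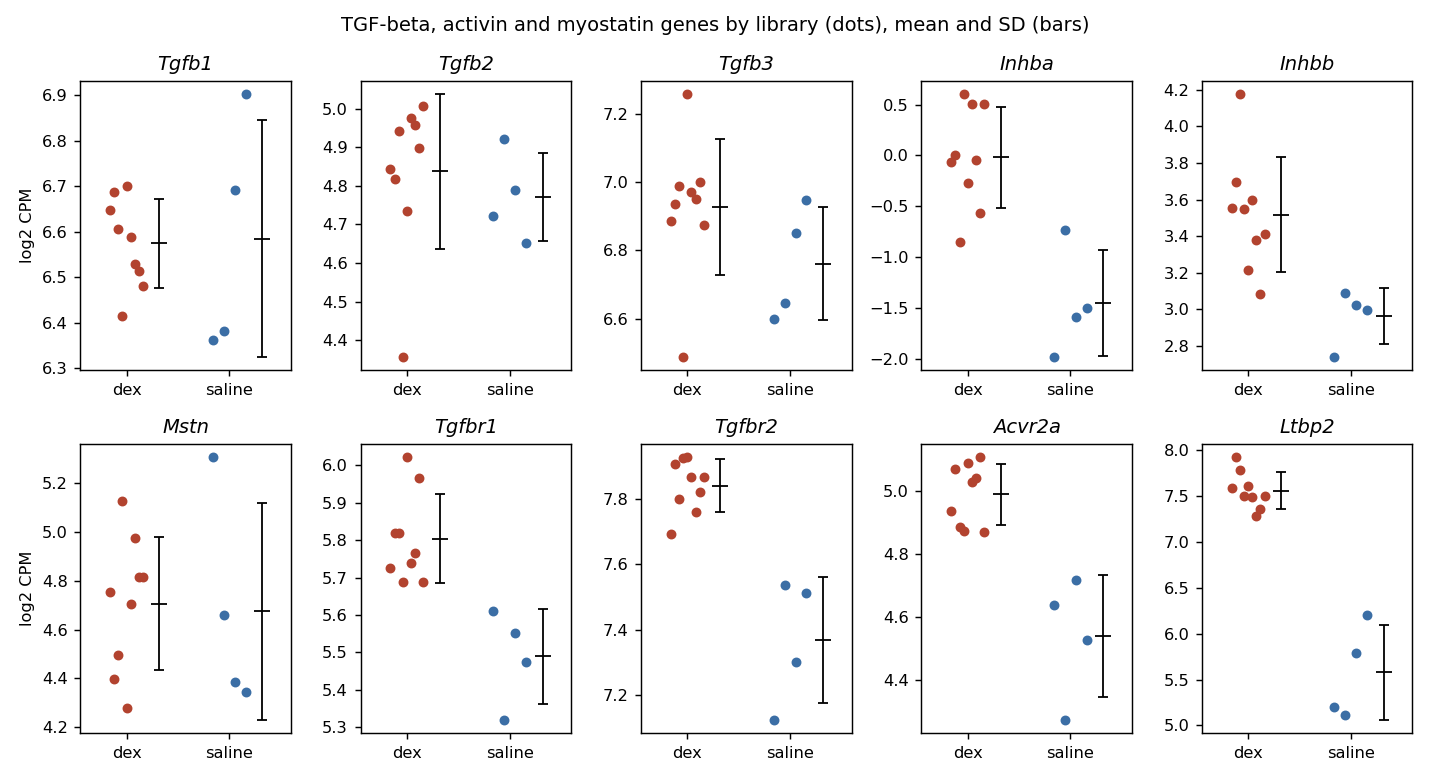
Levels of the 10 genes in log2 CPM (vertical axes, each with its own range) in 9 dexamethasone and 4 saline libraries, 1 dot per library, with bars for the mean and SD. The groups are apart for Tgfbr1, Tgfbr2, Acvr2a and Ltbp2, touch at 1 library for Inhba and Inhbb, and are intermingled for Tgfb1, Tgfb2, Tgfb3 and Mstn.

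Among the ligand genes, Inhba differed most. It encodes the beta A subunit that makes up activin A, a signal of inflammation and repair. It had -0.85, -0.04 and 0.60 log2 CPM at the lowest, median and highest of the 9 dexamethasone libraries, against -1.98, -0.73, -1.59 and -1.50 in saline libraries 1, 2, 3 and 5. All dexamethasone libraries but library 3 were above every saline library, and library 3 was below saline library 2 alone. The log2 fold change was 1.43 ± 0.30 (SE), with a 95% interval of 0.80 to 2.06 and an adjusted p of 0.000976 in limma, a 2.70-fold rise. This is a scarce transcript, with 16 to 44 reads (median 33) in dexamethasone libraries and 6 to 14 (median 10) in saline libraries. On mean CPM with no offset added, 1.02 ± 0.34 with dexamethasone and 0.37 ± 0.15 with saline (SD, n = 9 and 4), the ratio was 2.78. With log2 of CPM plus 1, a scale that shrinks low genes, the log2 fold change was 0.55. Inhba stood at place 168 by size among the 3760 genes that rose.

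Inhbb encodes the beta B subunit of activin B. Its level was 3.08, 3.55 and 4.18 log2 CPM at the lowest, median and highest dexamethasone library, against 2.74, 3.09, 3.02 and 2.99 in the 4 saline libraries. Only dexamethasone library 8 lay within the saline range, just under saline library 2, and dexamethasone library 3 stood highest. Inhbb rose 1.47-fold, a log2 fold change of 0.56 ± 0.15 (SE; 95% interval 0.24 to 0.87; limma adjusted p = 0.00573). With the mean of the mature fibre markers as a covariate the log2 fold change was 0.28 and the adjusted p in limma 0.312. The difference between the subunit genes, Inhba minus Inhbb within each library, averaged -3.54 ± 0.64 log2 with dexamethasone and -4.41 ± 0.41 with saline (SD, n = 9 and 4). That balance was 0.87 higher with dexamethasone, and it missed the threshold over the 9 balances computed (exact permutation p = 0.0503, adjusted 0.0881). Without dexamethasone library 3, the lowest of all 13, it was 1.06 higher and passed (adjusted p = 0.0121, exact permutation test). With each library left out in turn, the balance was 0.77 to 1.07 higher, with an adjusted p of 0.0121 to 0.234 (exact permutation test). With the fibre covariate it was 1.17 higher, but the permutation p is not exact there, because the covariate differs between the groups. With log2 of CPM plus 1 the difference was 0.05 (adjusted p = 0.685, exact permutation test).

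Tgfb1, the isoform of inflammatory cells and platelets, had 6.41, 6.59 and 6.70 log2 CPM at the lowest, median and highest dexamethasone library, against 6.36, 6.38, 6.69 and 6.90 in saline libraries. The saline libraries spanned more than the dexamethasone range on both sides. The log2 fold change was -0.01 ± 0.09 (SE; 95% interval -0.19 to 0.17; limma adjusted p = 0.931). Tgfb2 had 4.36, 4.90 and 5.01 log2 CPM in the same order of dexamethasone libraries, against 4.72, 4.92, 4.79 and 4.65 with saline. Its log2 fold change was 0.07 ± 0.10 (SE; interval -0.14 to 0.27; limma adjusted p = 0.602). Dexamethasone library 4 was lowest of all 13 libraries and the other 8 lay in or above the saline range.

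Tgfb3, an isoform with a part in tissue remodelling, had 6.49, 6.95 and 7.26 log2 CPM at the lowest, median and highest dexamethasone library, against 6.60, 6.65, 6.85 and 6.95 with saline. Of the 9 dexamethasone libraries, 5 were above every saline library and library 4 was below every one. The log2 fold change was 0.17 ± 0.10 (SE; 95% interval -0.05 to 0.38; limma adjusted p = 0.183). Without dexamethasone library 4 it was 0.22, with an adjusted p of 0.0231 in limma, so this library decided the call. Within libraries, Tgfb3 exceeded Tgfb1 by 0.35 ± 0.15 log2 with dexamethasone and by 0.18 ± 0.10 with saline (SD, n = 9 and 4), which missed the threshold (exact permutation p = 0.0503, adjusted 0.0881). Without dexamethasone library 4 the difference between the groups was 0.21 and passed (adjusted p = 0.0364, exact permutation test). With each library left out in turn, that difference was 0.13 to 0.21, with an adjusted p of 0.0364 to 0.234 (exact permutation test). With the fibre covariate it was 0.24, where the permutation p is not exact. Tgfb2 minus Tgfb1 differed by 0.08 between the groups (adjusted p = 0.673, exact permutation test), and by 0.35 with the fibre covariate, again without an exact p.

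Mstn encodes myostatin, made mainly by muscle fibres. It had 4.28, 4.75 and 5.13 log2 CPM at the lowest, median and highest dexamethasone library, against 5.31, 4.66, 4.39 and 4.35 in saline libraries 1, 2, 3 and 5. Saline library 1 was the highest of all and saline library 5 was near the bottom, so the dexamethasone values lay almost wholly inside the saline range. The log2 fold change was 0.03 ± 0.17 (SE; 95% interval -0.33 to 0.39; limma adjusted p = 0.894). The mean of the 18 mature fibre markers, in contrast, was 12.34 ± 0.18 log2 CPM with dexamethasone and 12.76 ± 0.25 with saline (SD, n = 9 and 4). Relative to that mean, Mstn was at -7.63 ± 0.19 log2 with dexamethasone and -8.08 ± 0.21 with saline, a difference of 0.45 that passed (exact permutation p = 0.00559, adjusted 0.0168). The balance was above every saline value in 8 of 9 dexamethasone libraries. It did not pass under quantile normalisation, where the difference was 0.099 (adjusted p = 0.673, exact permutation test), nor without saline library 2, 3 or 5, where it was 0.43, 0.40 and 0.43 (adjusted p = 0.0545 each, exact permutation test).

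**Figure D2:**
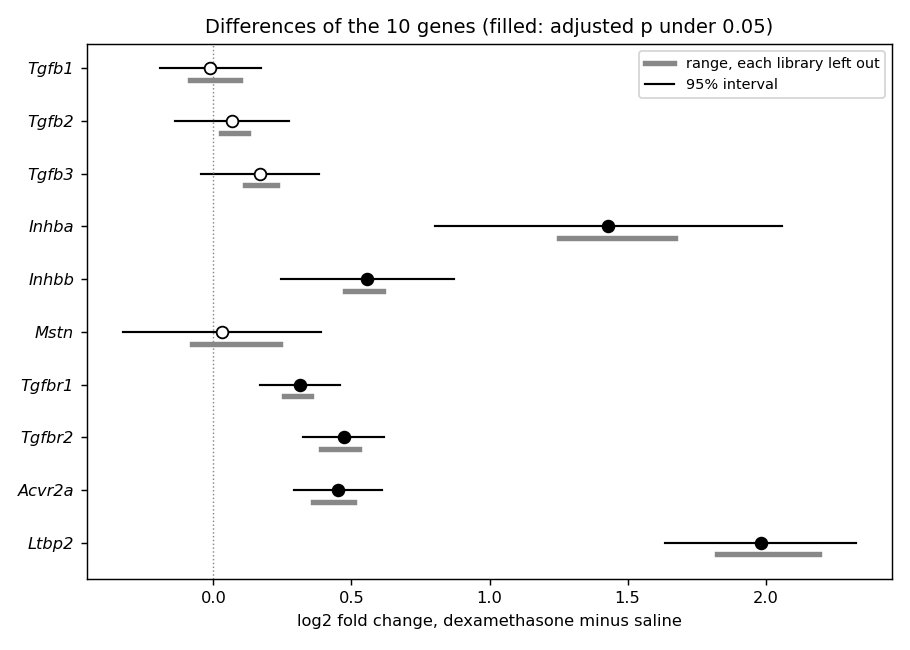
Log2 fold changes, dexamethasone minus saline, of the 10 genes (horizontal axis), with 95% intervals as thin lines and, as grey bars, the range over fits that each left out 1 library. Filled circles passed an adjusted p of 0.05. The intervals of Tgfb1, Tgfb2, Tgfb3 and Mstn include 0.

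The follistatin gene, whose product traps activins and myostatin, rose (Fst; 1.50 ± 0.11 log2, SE, limma adjusted p = 1.19e-07), with 4.37 to 4.91 log2 CPM in dexamethasone libraries and 2.81 to 3.35 in saline libraries. Mstn minus Fst was 0.04 ± 0.42 log2 with dexamethasone and 1.51 ± 0.69 with saline (SD, n = 9 and 4). Every dexamethasone value, -0.60 to 0.54, was below the saline values of 2.50, 1.47, 1.04 and 1.04. The difference of -1.47 passed (exact permutation p = 0.0028, the smallest that this test can give with 9 against 4, adjusted 0.0126). With the fibre marker mean as a covariate it was -0.55, where the permutation p is not exact. Inhba minus Fst was -4.69 ± 0.60 log2 with dexamethasone and -4.61 ± 0.47 with saline, a difference of -0.07 (exact permutation p = 0.839). With log2 of CPM plus 1 that difference was -0.86 and passed (adjusted p = 0.00839, exact permutation test). Fstl3, a related trap, rose by 1.66 ± 0.21 (SE, limma adjusted p = 1.51e-05), whereas Fstl1 at 0.18 ± 0.09 and Wfikkn2, an inhibitor of myostatin, at -0.14 ± 0.16 did not pass. In this group of 5 antagonists 2 rose (25.2% of all genes) and 0 fell (22.9%).

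All 3 receptor genes rose. Tgfbr2 encodes the type II receptor that binds TGF-beta ligands, and its level was 7.69, 7.87 and 7.93 log2 CPM at the lowest, median and highest dexamethasone library, against 7.13, 7.54, 7.30 and 7.51 with saline. The dexamethasone libraries were tightly grouped, all above the highest saline library. The log2 fold change was 0.47 ± 0.07 (SE; 95% interval 0.32 to 0.62; limma adjusted p = 5.73e-05), a 1.39-fold rise. With the fibre covariate it was 0.31 (limma adjusted p = 0.0108). Tgfbr1 encodes the type I receptor that TGF-beta and myostatin complexes use to phosphorylate Smads. It had 5.69, 5.77 and 6.02 log2 CPM with dexamethasone, in the same order, against 5.61, 5.32, 5.55 and 5.47 with saline, again without overlap though the gap to saline library 1 was small. Tgfbr1 rose 1.24-fold (0.31 ± 0.07 log2, SE, limma adjusted p = 0.00151). Tgfbr1 minus Tgfbr2 within libraries was -2.04 ± 0.13 log2 with dexamethasone and -1.88 ± 0.31 with saline, a difference that did not pass (-0.16, exact permutation p = 0.235, adjusted 0.302).

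Acvr2a encodes a type II receptor of activins and myostatin. It had 4.87, 5.03 and 5.11 log2 CPM at the lowest, median and highest dexamethasone library, against 4.64, 4.27, 4.72 and 4.53 with saline, without overlap. It rose 1.37-fold (0.45 ± 0.07 log2, SE; 95% interval 0.29 to 0.61; limma adjusted p = 0.000164). Exons of Acvr2a share 446 of their 5686 bases with Orc4, a replication gene on the opposite strand, and whether counting used strand is not given in the sources used here. Orc4 had 471 to 612 reads in dexamethasone libraries and 287 to 467 in saline libraries and rose by 0.35 ± 0.07 log2 (SE, limma adjusted p = 0.000672). Acvr2b, the close relative of Acvr2a, rose by 0.88 ± 0.19 (SE, limma adjusted p = 0.00138). Acvr2a minus Acvr2b was 2.84 ± 0.34 log2 with dexamethasone and 3.27 ± 0.30 with saline, a difference of -0.43 that missed the threshold (exact permutation p = 0.0587, adjusted 0.0881). Without dexamethasone library 5, the highest of its group, the difference was -0.52 and passed (adjusted p = 0.0182, exact permutation test). With each library left out in turn, the difference was -0.56 to -0.32, with an adjusted p of 0.0182 to 0.234 (exact permutation test). With the fibre covariate it was -0.89, where the permutation p is not exact. With log2 of CPM plus 1 it was -0.24 (adjusted p = 0.252, exact permutation test).

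Among the 6 other receptors and co-receptors measured, 3 rose (25.2% of all genes) and 0 fell (22.9%). Besides Acvr2b these were Acvr1c, a type I receptor of activin-like ligands (1.24 ± 0.22 log2, SE, limma adjusted p = 0.000292), and Tgfbr3, the co-receptor betaglycan (0.29 ± 0.07, limma adjusted p = 0.00192). Eng, an endothelial co-receptor, was at 0.12 ± 0.06 and Acvr1b, the activin type I receptor, at -0.02 ± 0.12, and neither passed. With the fibre covariate Acvr2b and Acvr1c still passed. Tgfbr3 did not (0.25, limma adjusted p = 0.0550), whereas Acvr1b did (0.39, limma adjusted p = 0.0140). The median log2 fold change of the 6, without the covariate, was 0.21. Of 4 other ligand genes 0 rose (25.2% of all genes) and 2 fell (22.9%). These were Gdf11, a close relative of myostatin (-0.68 ± 0.17 log2, SE, limma adjusted p = 0.00372, and 0.0740 with the fibre covariate), and Inha, the inhibin alpha subunit, which pairs with a beta subunit to oppose activin (-0.49 ± 0.11, limma adjusted p = 0.00181). Gdf3 at -0.29 ± 0.24 and Gdf15 at -0.01 ± 0.24 did not pass. Both genes that fell were lower in every dexamethasone library than in any saline library.

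Ltbp2 changed most of the 10. It belongs by sequence to the latent TGF-beta binding proteins but does not itself hold latent TGF-beta, and is known as a partner of fibrillin in elastic matrix. It had 7.29, 7.50 and 7.93 log2 CPM at the lowest, median and highest dexamethasone library, against 5.21, 5.11, 5.79 and 6.21 in saline libraries 1, 2, 3 and 5. The lowest dexamethasone library was above the highest saline library by more than the whole range among dexamethasone libraries, and the saline libraries were themselves spread. In reads, dexamethasone libraries had 4977 to 8137 and saline libraries 830 to 2409. Ltbp2 rose 3.95-fold (1.98 ± 0.16 log2, SE; 95% interval 1.64 to 2.33; limma adjusted p = 3.21e-07). It was at place 58 by size among the 3760 genes that rose and at place 83 by p among all 14911. With the fibre marker mean as a covariate its log2 fold change was 1.43 (limma adjusted p = 1.59e-05). Its exons share 764 of 8184 bases with D030025P21Rik, an antisense gene, which had 9 to 16 reads in dexamethasone libraries and 0 to 5 in saline libraries.

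Ltbp1, which does bind latent TGF-beta, rose less (0.31 ± 0.07 log2, SE, limma adjusted p = 0.00111). With the fibre covariate it was 0.24 and did not pass (limma adjusted p = 0.0620). Ltbp2 minus Ltbp1 within libraries was 1.23 ± 0.19 log2 with dexamethasone and -0.44 ± 0.48 with saline (SD, n = 9 and 4). All dexamethasone values, 0.98 to 1.52, were above the saline values of -0.72, -0.89, -0.33 and 0.19. The difference of 1.67 passed (exact permutation p = 0.0028, adjusted 0.0126). In the same family Ltbp3 at 0.09 ± 0.05 did not pass. Ltbp4 fell (-0.44 ± 0.08, SE, limma adjusted p = 0.000327) and is named after its value was seen. It was the 1 gene of 21 other latency and activation genes that fell (22.9% of all genes). Without saline library 5 the count that fell was 2.

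Of those 21 genes, which store, free or process TGF-beta, 14 rose (25.2% of all genes), with a median log2 fold change of 0.32. Thbs1, thrombospondin-1, which frees latent TGF-beta, rose by 2.43 ± 0.19 (SE, limma adjusted p = 2.21e-07), with 8.51 to 9.02 log2 CPM in dexamethasone libraries and 5.78 to 7.06 in saline libraries. Furin, the protease that cleaves TGF-beta precursors, rose by 0.44 ± 0.05 (limma adjusted p = 5.52e-06). Integrin genes Itgav (0.47 ± 0.06, limma adjusted p = 1.79e-05) and Itgb1 (0.40 ± 0.05, limma adjusted p = 1.66e-05) rose, as did Fbn1, fibrillin-1 (0.78 ± 0.12, limma adjusted p = 9.50e-05). Of the other integrin genes listed, Itgb5 rose (0.18 ± 0.06, limma adjusted p = 0.0181), whereas Itgb6 at 0.003 ± 0.07 and Itgb8 at 0.20 ± 0.28 did not pass. Itgb5, Itgb6 and Itgb8 are named after their values were seen. Dcn, the TGF-beta-binding proteoglycan decorin, was at -0.10 ± 0.07 and did not pass. With the fibre marker mean as a covariate 6 of the 21 rose (14.8% of all genes) and 1 fell (13.7%).

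Marker values of other cell types are set beside these changes, to be read against the 48.1% of all genes that passed. The 6 tendon cell markers summed to 1229 to 1584 CPM with dexamethasone and 738 to 935 CPM with saline, with 2 higher (Scx and Thbs4) and 2 lower (Tnmd and Kera). Most of that sum was Thbs4. The mean of the tendon list was 4.37 ± 0.16 log2 CPM with dexamethasone and 4.43 ± 0.28 with saline (SD). The 6 platelet and megakaryocyte markers summed to 42.8 to 72.4 CPM with dexamethasone and 25.7 to 46.6 CPM with saline, with Pf4 higher and Itga2b lower. Most of that sum was Pf4. The mean of the platelet list was 0.65 ± 0.35 log2 CPM with dexamethasone and 0.59 ± 1.00 with saline (SD). Macrophage markers summed to 2618 to 3585 CPM with dexamethasone and 2161 to 3150 CPM with saline, with 4 of 12 higher (Cd68, Itgam, Mrc1, Cd163) and 2 lower (Csf1r, Aif1). Fibro-adipogenic progenitor and fibroblast markers, genes of the main matrix-making cells, summed to 1523 to 1709 CPM with dexamethasone and 1579 to 2009 CPM with saline, with 2 of 12 higher (Pdgfrb, Mfap5) and 3 lower (Lum, Cd34, Dpt). Satellite cell and myoblast markers summed to 2066 to 2857 CPM with dexamethasone and 2308 to 3359 CPM with saline, with 4 of 10 higher (Myod1, Megf10, Cdh15, Itga7) and Myh3 lower. Most of that sum was Myh3. The mean of the myoblast list was 6.54 ± 0.13 log2 CPM with dexamethasone and 6.33 ± 0.29 with saline (SD). Endothelial markers summed to 318 to 381 CPM with dexamethasone and 333 to 383 CPM with saline, with 1 of 10 higher (Cldn5) and 2 lower (Tie1, Robo4). These marker genes are named after their values were seen. Fmod and Dcn stand in a marker list and among the latency genes, and Scx in a marker list and among the targets. The part of cell makeup in the changes of Ltbp2, the receptors and the activin genes was not tested beyond the fibre covariate.

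Downstream, 11 of 15 Smads and their regulators rose (25.2% of all genes) and 1 fell (22.9%), with a median log2 fold change of 0.27. The genes of smallest adjusted p were Pmepa1 (0.94 ± 0.07 log2, SE, limma adjusted p = 2.21e-07), Skil (0.79 ± 0.07, limma adjusted p = 7.56e-07), Smad7 (0.75 ± 0.08, limma adjusted p = 3.69e-06), Tgif1 (0.83 ± 0.10, limma adjusted p = 1.27e-05) and Ski (0.35 ± 0.04, limma adjusted p = 1.31e-05). Pmepa1 sequesters receptor Smads, Skil, Ski and Tgif1 are nuclear co-repressors, and Smad7 blocks the type I receptor. Of the signal-carrying Smads, Smad2 (0.23 ± 0.05, limma adjusted p = 0.00178) and Smad4 (0.27 ± 0.05, limma adjusted p = 0.000184) rose without overlap between the groups, and Smad3 at -0.11 ± 0.10 did not pass. The co-repressor gene Tgif2 at -0.14 ± 0.12 and Ppm1a, a Smad phosphatase, at -0.12 ± 0.06 did not pass either. Smad2, Smad4 and Tgif2 are named after their values were seen. With the fibre marker mean as a covariate 8 of the 15 rose (14.8% of all genes) and 0 fell (13.7%). Zfyve9, which presents Smads to the receptor, fell by 0.23 (SE 0.08, limma adjusted p = 0.0235) and is named after its value was seen. It did not pass without saline library 1 or 2 or by the rank sum test, and with the fibre covariate it was at 0.04.

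Of 22 genes known as TGF-beta targets, 14 rose (25.2% of all genes) and 0 fell (22.9%), and the median log2 fold change was 0.56. The collagen cross-linking enzyme Lox rose by 2.09 ± 0.13 (SE, limma adjusted p = 3.75e-08), with 8.77 to 9.46 log2 CPM in dexamethasone libraries and 6.68 to 7.39 in saline libraries. Other rises were those of the matrix protein gene Ccn2 by 1.68 ± 0.13 (limma adjusted p = 2.28e-07), the metalloproteinase inhibitor Timp1 by 1.75 ± 0.15 (limma adjusted p = 5.92e-07), the transcriptional repressor Bhlhe40 by 1.18 ± 0.11 (limma adjusted p = 1.42e-06) and Klf10, a TGF-beta-induced transcription factor, by 1.66 ± 0.16 (limma adjusted p = 1.71e-06). With the fibre marker mean as a covariate 9 of the 22 rose (14.8% of all genes) and 1 fell (13.7%). The gene that fell was Col1a2, named after its value was seen (-0.43 ± 0.15, SE, limma adjusted p = 0.0417). Of the fibrillar collagen genes, Col1a1 was at -0.15 ± 0.15 and Col3a1 at -0.14 ± 0.13, and neither passed. Several of these genes are also known to answer to other signals, glucocorticoids among them. Over all 73 pathway genes besides the 10, 44 rose and 4 fell (background 25.2% and 22.9%), and the groups did not overlap in 30 genes with dexamethasone higher and in 3 with it lower (background 12.9% each).

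**Figure D3:**
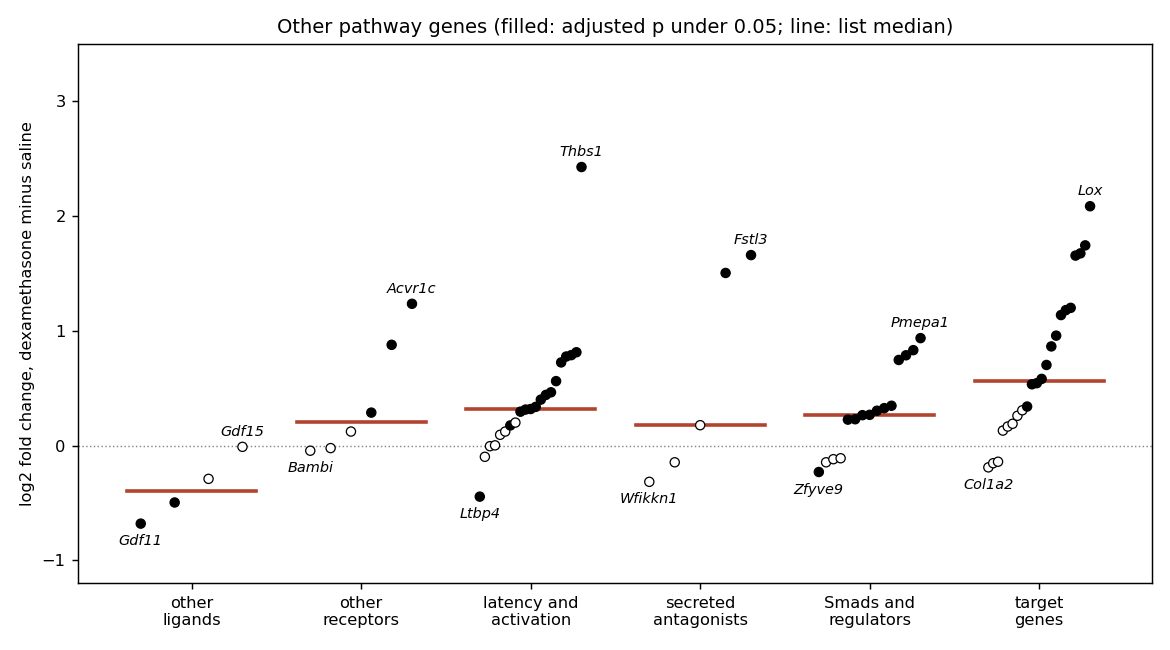
Log2 fold changes, dexamethasone minus saline (vertical axis), of the 73 other pathway genes in 6 groups, 1 circle per gene and filled where the adjusted p was under 0.05, with a line at each group's median. Other ligands lie below 0, and the medians of the other 5 groups lie above it, from 0.18 for the antagonists to 0.56 for the targets.

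Levels of different genes were compared per kilobase of exon, from GENCODE M21 exon lengths. The 6 ligand genes kept the same order in both groups. Tgfb3 was highest, at 5.17 ± 0.20 log2 CPM per kb with dexamethasone and 5.00 ± 0.17 with saline (SD, n = 9 and 4), ahead of Tgfb1 at 4.24 ± 0.10 with dexamethasone and 4.25 ± 0.26 with saline. Mstn followed at 3.27 ± 0.27 with dexamethasone and 3.24 ± 0.44 with saline, then Tgfb2 at 2.30 ± 0.20 with dexamethasone and 2.24 ± 0.11 with saline. The activin genes were last, Inhbb at 1.43 ± 0.31 with dexamethasone and 0.87 ± 0.15 with saline, and Inhba at -2.70 ± 0.50 with dexamethasone and -4.13 ± 0.52 with saline. Neighbours in this order did not overlap, except Tgfb2 and Inhbb over dexamethasone libraries, where Tgfb2 was still the higher in 9 of 9. Thus among these 6 the transcripts that rose were the scarcest, and they stayed below those that did not pass.

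Among receptors, Tgfbr2 was highest per kb (4.81 ± 0.08 log2 CPM per kb with dexamethasone, 4.34 ± 0.19 with saline), then Tgfbr1 (3.10 ± 0.12 with dexamethasone and 2.78 ± 0.13 with saline) and Acvr2a (2.48 ± 0.10 with dexamethasone and 2.03 ± 0.19 with saline), with no overlap between neighbours. Ltbp2 stood at 4.53 ± 0.20 with dexamethasone and 2.55 ± 0.52 with saline. By mean it was thus between Tgfbr2 and Tgfbr1 with dexamethasone, but below Tgfbr1 with saline. Its dexamethasone range of 4.25 to 4.89 overlapped that of Tgfbr2, 4.66 to 4.89. In saline library 5 it was above Tgfbr1, at 3.18 against 2.77.

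**Figure D4:**
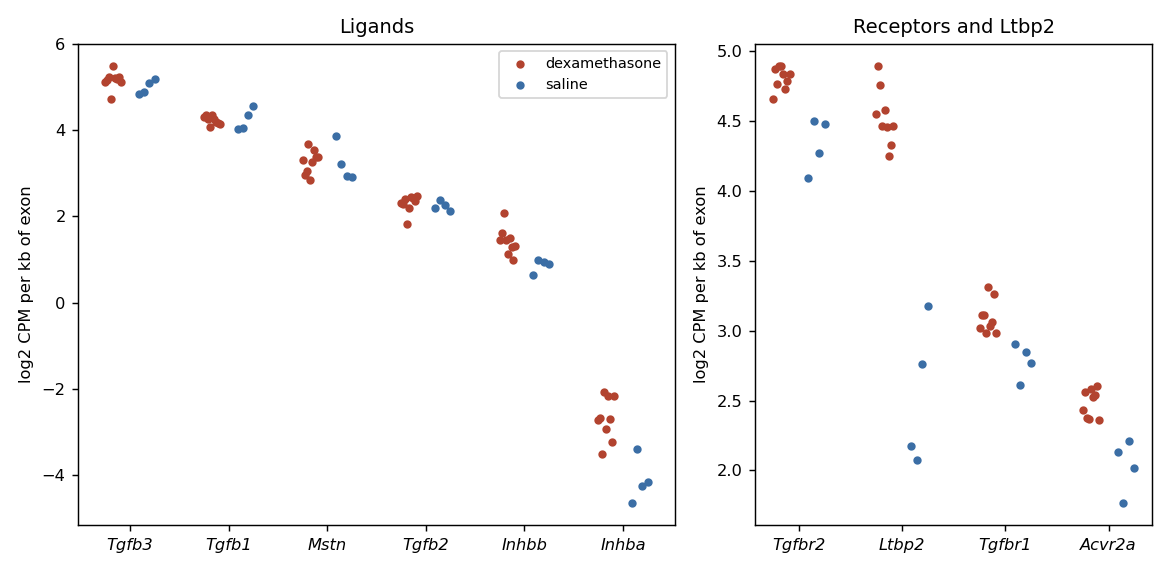
Levels per kilobase of exon in log2 CPM per kb (vertical axes) for the 6 ligand genes on the left and for the 3 receptor genes and Ltbp2 on the right, 1 dot per library. The order of the ligands is the same in 9 dexamethasone and 4 saline libraries by mean, from Tgfb3 to Inhba.

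Variation between mice was not shared by all of the genes. Among dexamethasone libraries, library 4 was lowest for all 3 TGF-beta ligand genes and highest for Inhba and Mstn. Library 5 was highest for Tgfb1, Tgfb3, Tgfbr1 and Tgfbr2 and lowest for Mstn. In the saline group, library 1 was lowest for 5 genes (Tgfb1, Tgfb3, Inhba, Inhbb and Tgfbr2) and highest for Mstn and Tgfbr1, and library 5 was highest for Tgfb1, Tgfb3 and Ltbp2. The SD of Ltbp2 was 0.20 with dexamethasone and 0.52 with saline, and that of Tgfbr2 was 0.08 with dexamethasone and 0.19 with saline.

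The genes whose profiles over the 13 libraries were nearest to those of the 3 members of largest change were sought by the root mean square difference after centring, among 12223 genes. For Ltbp2 these were Syt8, a synaptotagmin (0.178 log2), Sox11, a developmental transcription factor (0.184), and R3hdml (0.200), beside a root mean square of 0.960 for Ltbp2 about its own mean. Inhba was nearest to Tnfaip6, a hyaluronan-binding protein of inflammation (0.369), Npas2, a clock transcription factor (0.374), and Ednrb, the endothelin receptor B (0.379), beside 0.808 about its own mean. Inhbb was nearest to Cebpa, a transcription factor of myeloid cells and adipocytes (0.162), Cachd1 (0.173) and Hspa12a (0.177), beside 0.364 about its own mean. As their likeness to genes that rose implies, all 9 rose, by 0.39 to 1.98 log2 (limma adjusted p of 0.00279 or less).

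**Figure D5:**
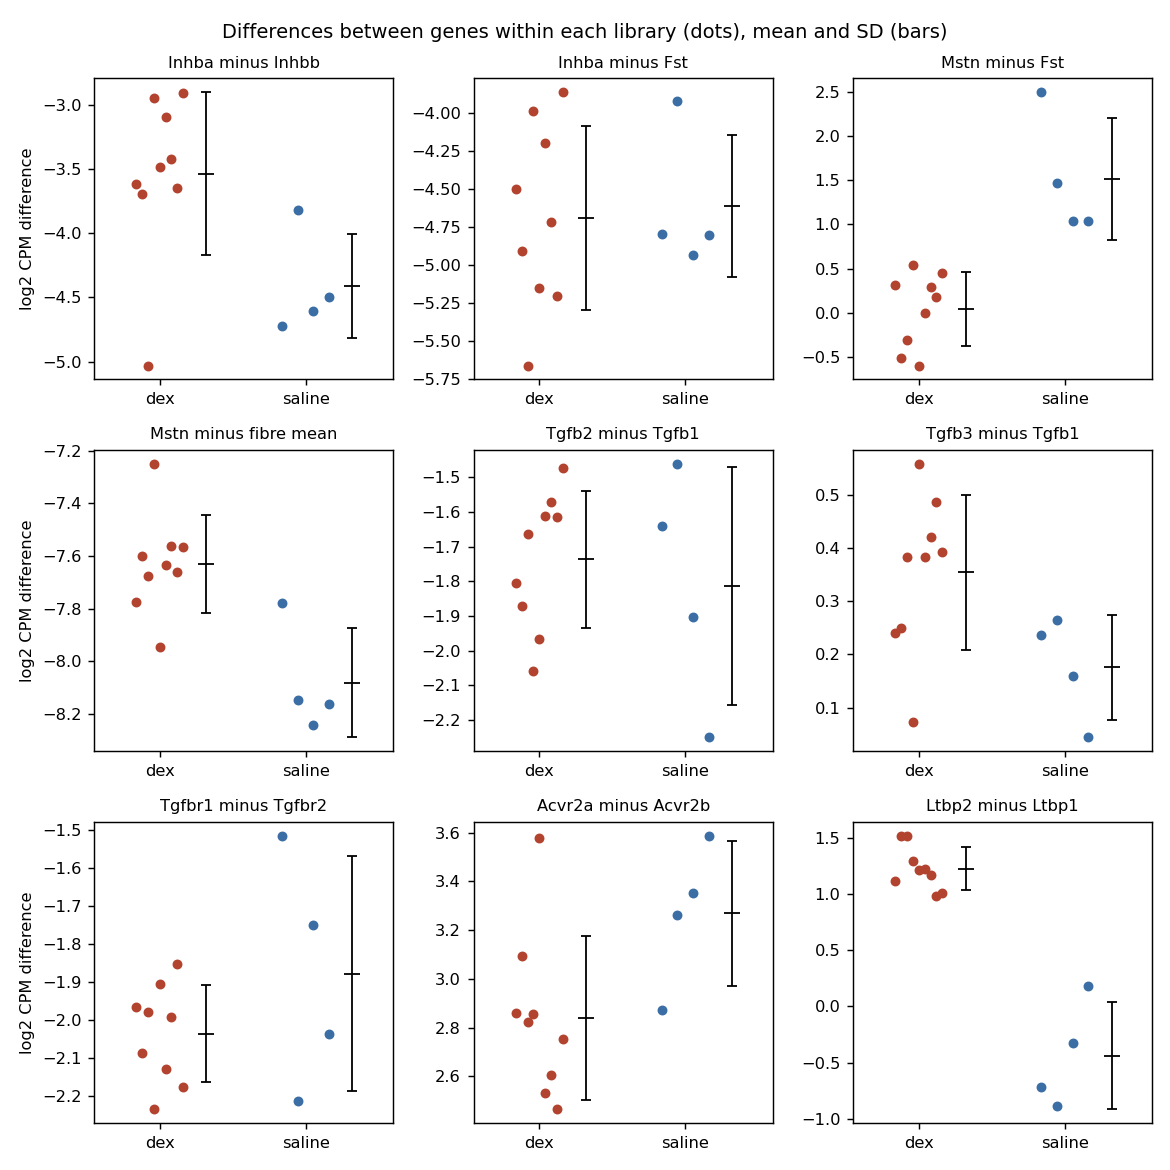
Differences between genes, or between Mstn and the mean of the fibre markers, within each library in log2 CPM (vertical axes, each with its own range), 1 dot per library with bars for the mean and SD. Groups are apart for Mstn minus Fst (lower with dexamethasone) and for Ltbp2 minus Ltbp1 (higher), and they overlap in the other 7.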

How the data were processed

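Messenger RNA of injured hamstring muscle was measured in 13 mice, 9 given dexamethasone and 4 given saline, with groups and replicate numbers taken from the labels. Per the labels' protocols, polyadenylated RNA was made into libraries that keep strand. The submitters' processing notes name featureCounts 2.0.1, limma 3.50.1 and the mouse build mm10. What aligner, annotation and filter on low genes were used, and whether counting used strand, is not given in the sources used here. Normalised log2 CPM values per mouse were deposited by the authors, in a table of 14911 genes without the excluded saline mouse and in another that holds its column. That 1 column was not used. The deposited values gave back whole reads in 100% of cases within 0.01 of a whole number, since each is the log2 of reads plus an offset of 0.5, scaled to the library.

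Here, limma 3.58.1 (R 4.3.3) with an intensity trend was fitted to all genes, two-sided, with Benjamini-Hochberg adjustment. Balances, differences of 2 log2 values within a library, were tested by exact two-sided permutation over the 715 assignments of libraries with SciPy 1.17.1, adjusted over 9. With the fibre covariate, that covariate was taken out of each balance and group labels were permuted, leaving out Mstn minus the fibre mean. The covariate differs between the groups, so that p is not exact and may be too small. The limma step was tested on simulated data. Levels between genes were divided by the exon length in GENCODE M21, and coordinates came from RefSeq. Same-numbered libraries did not deviate together (correlations of 0.0907, -0.0648, -0.0730 and 0.0469), so mice were not treated as pairs. The labels name no cage, litter or day. The limma p-values weigh group differences against the spread between these mice, moderated over genes. Those of the balances come from permuting group labels among these mice.

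Named genes were the 10 members, in each pathway list up to 5 genes of smallest adjusted p and up to 2 of the most abundant that did not pass, genes in a balance and the nearest profiles of mean log2 CPM of at least 1. Members, lists and balances were chosen with earlier results of these data known, so counts over a list carry no test. The permutation p-values of the balances, and their adjustment, do not allow for that choice and may be too small. A balance that passed is thus a description of these mice. Mstn minus Fst and Ltbp2 minus Ltbp1 largely restate the rises of Fst and Ltbp2. Of the listed genes, Inhbc, Inhbe, Nodal, Gdf1, Tdgf1, Foxh1 and Gp9 had no row in the table. One target gene is not reported here. Each value was also computed from the second deposited table, with log2 of CPM plus 1, with quantile normalisation, median centring, a mean log2 CPM of at least 1, limma without trend or with robust priors, voom on the recovered reads, exact rank sum tests, the fibre marker mean as a covariate, the mouse number as a block and each library left out. A fit of the 8 libraries that share mouse numbers, with no block, was chosen after seeing the data. Figures were drawn with matplotlib 3.10.9.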

Additional observations from a re-analysis of the deposited data

Results flagged for a closer look

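In 4 of 38 groups of values tested, 1 library stood apart from its own group by Dixon's criterion, which chance meets in about 1 in 20 groups. Dexamethasone library 4 had 4.36 log2 CPM of Tgfb2, with the nearest other dexamethasone library at 4.74, and 6.49 log2 CPM of Tgfb3, with the nearest at 6.87. Dexamethasone library 3 had an Inhba minus Inhbb balance of -5.03 log2, with the nearest at -3.69, being lowest for Inhba and highest for Inhbb. Saline library 2 had an Inhba minus Fst balance of -3.92 log2, with the nearest at -4.80. Inhba rested on 6 to 14 reads per saline library and 16 to 44 per dexamethasone library, and the part of counting error in these balances was not tested.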

How the results depend on the processing

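Over 25 alternative settings, the count of the 10 genes that rose was 5 to 7 (6 to 7 with each library left out) and the count that fell was 0. For the 6 genes that rose, 148 of 149 values kept their direction and passed, the exception being Inhbb with the fibre covariate, while Inhba was not tested with the filter at a mean log2 CPM of 1. Mstn passed with the fibre covariate (0.61, limma adjusted p = 0.00553). Over all genes, 6306 to 7173 passed with each library left out, beside 7173, and 4245 with the fibre covariate, of which 2208 were higher and 2037 lower. That covariate itself differs between the groups.

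With the replicate block, on the 8 libraries that share numbers, 5959 genes passed, beside 6124 on the same libraries without it. Same-numbered libraries share only a number, and 2 of the 4 saline libraries correlated best with their own number. Tgfb3 passed with the block (0.26, limma adjusted p = 0.0102). No balance (0) can pass with it, since 4 pairs allow no exact p below 0.125. Balances that passed numbered 2 to 4 with each library left out, beside 3. With the fibre covariate 6 were under the threshold, by a permutation p that is not exact and may be too small.

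Values that turned sign belonged to genes and balances that had not passed. Tgfb3 was -0.0036 with the fibre covariate. Tgfb1 was 0.076 with the block and on those 8 libraries without it, and -0.085 to 0.096 with each library left out. Its difference of group medians, set beside the rank sum test, was 0.052. Mstn was -0.19 with and without the block, and -0.078 to 0.24 with each library left out. Inhba minus Fst was 0.11 under quantile normalisation, 0.28 with the fibre covariate and -0.18 to 0.16 with each library left out. Tgfb2 minus Tgfb1 was -0.012 with the block and -0.069 to 0.19 with each library left out. The causes were not tested. Inhba has the fewest reads of the 10 genes, 6 to 44 per library.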
